A study of Rattus norvegicus with 12 samples.

Results

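Rpph1, the RNA of nuclear RNase P, and the gene copies annotated as RNase P RNA or RNase MRP RNA were followed through 12 sequencing libraries of mitochondria from rat skeletal muscle. The members were every row of the deposited count table whose name starts with RNaseP or RNase_MRP, or is Rpph1 or Rmrp. This gave 36 of 30560 genes: Rpph1, 34 copies named RNaseP_nuc and 1 copy named RNase_MRP. Rmrp was not analysed here. A RefSeq gene table of assembly GRCr8 lists Rpph1 under the biotype RNase_MRP_RNA with Rmrp as a synonym, whereas the deposited table gives only the name, so the identity of the gene below rests on the deposited name and its Ensembl identifier.

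RNase P is the enzyme that cuts the leader from precursor transfer RNAs. The nuclear form is a ribonucleoprotein in which an RNA is bound by a set of Pop and Rpp proteins, and RNase MRP, which acts in ribosomal RNA maturation, has a related RNA and shares most of those proteins. Mammalian mitochondria also hold a form made of protein only, from Trmt10c, Hsd17b10 and Prorp. Both RNAs have been reported inside mitochondria in earlier work, which makes them of interest in purified organelles.

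All libraries came from hindlimb muscle of 1 wild-type male Wistar Kyoto rat aged 14 weeks, whose homogenate was pooled and divided, and every preparation had been exposed to RNase A, which degrades RNA that it can reach. The group crude_RNase was isolated by differential centrifugation, IP_RNase by magnetic-bead immunoprecipitation, and IP_RNase_ProK likewise with proteinase K, a protease, in addition. The group mitoplast_RNase held mitoplasts, mitochondria without their outer membrane, made from bead-isolated organelles; each group had 3 libraries. Library input was 6.3 ng of RNA for crude mitochondria and 40 ng for the others, so isolation method and input cannot be told apart. The 12 libraries are divisions of material from 1 animal, so the SDs, SEs and p-values below cover the spread among aliquots, which can be technical, and not that among animals. In such bulk preparations fewer particles that carry an RNA and less RNA in each cannot be told apart.

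Total counts were 6583452 to 7123045 in the crude libraries and 3325430 to 4563254 in the others, and genes of the mitochondrial chromosome held 41.2% to 54.0% and 2.06% to 10.9% of them. Every library gave counts to olfactory receptor genes, which muscle is not known to transcribe: the median of 1077 such genes was 30 to 50 counts. This median is used below as a level to read low counts against. Of 12 markers of skeletal muscle 9 were in the table and none was at 0 in any group. Their summed CPM (counts per 1000000, on effective library sizes) was 5029 to 6401 in crude mitochondria and 453 to 625 in the other libraries.

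Rpph1 (ENSRNOG00000054493) was abundant in crude mitochondria and close to the olfactory receptor level in every bead-isolated preparation. The crude libraries held 1987, 1071 and 995 raw counts of Rpph1. IP_RNase held 33, 22 and 68, IP_RNase_ProK held 34, 40 and 17, and mitoplast_RNase held 44, 76 and 49. The lowest crude library therefore stood far above the highest bead-isolated one, while the median gene of the table had 63 to 78 counts in the crude libraries and 70 to 97 in the others. As a share of all counts, Rpph1 made up 302 per 1000000 in crude_RNase 1 (exact 95% Clopper-Pearson interval 289 to 315) and 147 in crude_RNase 3 (138 to 157). The lowest bead-isolated share was 4.41 per 1000000 in IP_RNase_ProK 3 (2.57 to 7.06) and the highest 18.1 in mitoplast_RNase 2 (14.2 to 22.6). The mean share of all counts differed from that of crude_RNase by -189, -192 and -186 per 1000000 in IP_RNase, IP_RNase_ProK and mitoplast_RNase. As a share of counts outside the mitochondrial genes, the differences were -373, -377 and -371. The intervals cover counting error only, since reads copied by PCR are not independent molecules. Crude replicate 1, the library highest in Rpph1, was also the crude library with the lowest mitochondrial share, 41.2% against 53.3% and 54.0%; the part of that in its Rpph1 value was not tested.

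**Figure D1:**
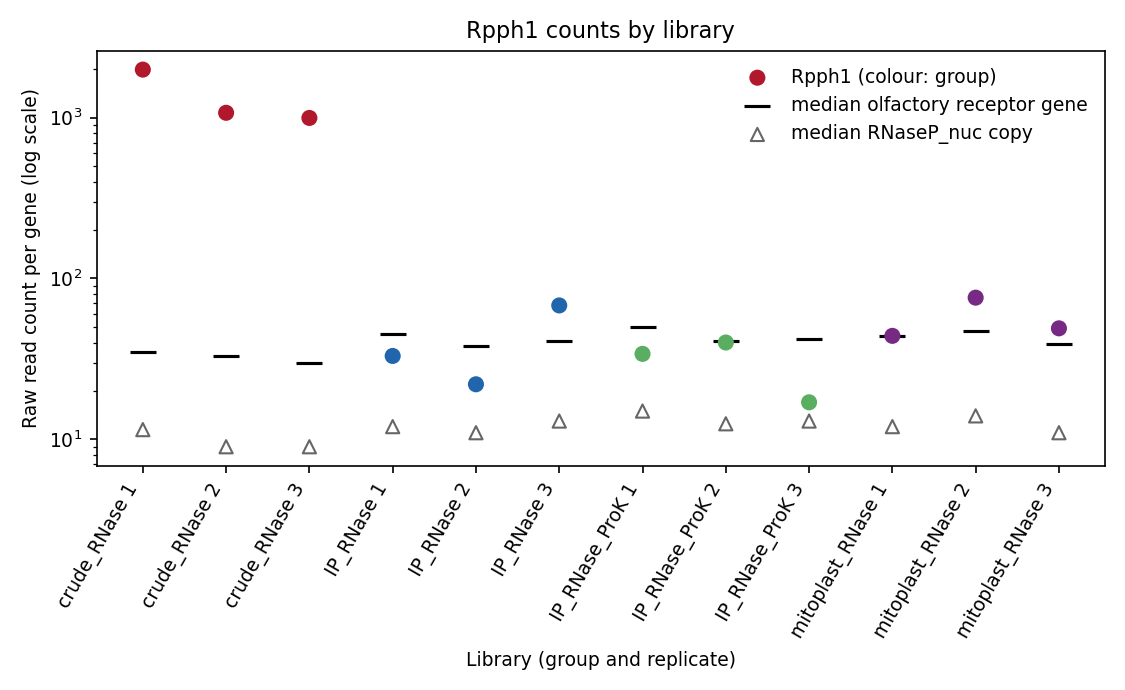
Raw read counts of Rpph1 in each of the 12 libraries (filled points, coloured by group; log axis), with the median olfactory receptor gene (bars) and the median RNaseP_nuc copy (triangles) of the same library. The 3 crude libraries sit at 995 to 1987 counts and the 9 bead-isolated libraries at 17 to 76, on both sides of the olfactory receptor median.

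Against the olfactory receptor genes the contrast was plain. In crude_RNase 1, 2 and 3 the count of Rpph1 was 56.8, 32.5 and 33.2 times the median olfactory receptor gene, and 0 of 1077 olfactory receptor genes had more counts. In IP_RNase the ratios were 0.733, 0.579 and 1.66, and in IP_RNase_ProK they were 0.680, 0.976 and 0.405. In mitoplast_RNase they were 1.00, 1.62 and 1.26, and among the bead-isolated groups this was the one in which no library fell below the median. IP_RNase_ProK 3 was the lowest library: 994 olfactory receptor genes had more counts than Rpph1 there. Gene lengths were not used, so these are comparisons of counts per gene and not of levels per base. The log2 ratio to the median, with 0.5 added to the count of Rpph1, was 5.30 ± 0.457 for crude mitochondria (SD, n = 3, as for each group). For IP_RNase it was -0.15 ± 0.786, for IP_RNase_ProK -0.61 ± 0.626 and for mitoplasts 0.35 ± 0.343. Each of the 3 comparisons with crude mitochondria had no overlap and a two-sided exact permutation p of 0.1, the smallest that 3 against 3 libraries allow (adjusted p = 0.15 over 6 comparisons). Mitoplasts against IP_RNase_ProK, a difference of 0.96, also had no overlap and the same exact p.

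The same direction was found in a fit across all 26483 genes that passed the filter on low counts. Crude mitochondria had 337 ± 94.1 CPM of Rpph1 (SD, n = 3, as for each group). IP_RNase had 9.58 ± 5.31 CPM, IP_RNase_ProK had 6.20 ± 2.62 and mitoplasts had 11.6 ± 2.97. The log2 fold change against crude mitochondria was -5.12 ± 0.169 for IP_RNase, -5.77 ± 0.177 for IP_RNase_ProK and -4.85 ± 0.160 for mitoplast_RNase (SE; edgeR quasi-likelihood adjusted p = 9.19e-32, 2.68e-33 and 8.69e-32). Counted from the lowest fold change upward, Rpph1 ranked 11, 12 and 22 among the 26483 genes in these comparisons, which share the same 3 crude libraries. Without crude_RNase 1 the values were -4.86, -5.51 and -4.59. Some marker lists moved with this result and others did not. Besides the muscle markers above, 6 fibroblast markers summed to 1560 to 1705 CPM in crude mitochondria and 353 to 393 in the other libraries. The 7 endothelial markers were level, at 527 to 566 and 521 to 551 CPM. So were 6 macrophage and leukocyte markers, at 320 to 330 and 306 to 334 CPM. The 5 erythroid markers in the table differed little, at 162 to 183 and 142 to 158 CPM. The scaling behind these sums left the median gene at 0.01, 0.00 and 0.00 against crude mitochondria on the log2 scale. How far the level sums measure RNA of those cell types was not tested. The part of other cellular material in the fall of Rpph1 was not tested. Markers of nuclear RNA were not analysed here.

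The gene that overlaps Rpph1 in RefSeq did not pass the test in any comparison with crude mitochondria. In RefSeq (assembly GRCr8) the span of Rpph1 overlaps that of Parp2, a poly(ADP-ribose) polymerase of DNA repair, with Ccnb1ip1 and Tep1 as neighbours. Reads were counted on assembly mRatBN7.2, where this overlap was not checked. The counts of Parp2 were 152, 139 and 123 in crude_RNase and 139 to 185 in the other libraries. Its log2 fold changes against crude mitochondria were 0.06 ± 0.112, -0.04 ± 0.110 and -0.02 ± 0.111 for IP_RNase, IP_RNase_ProK and mitoplast_RNase (SE; edgeR adjusted p = 0.838, 0.911 and 0.963). Reads of Rpph1 and of Parp2 cannot be told apart by strand here, because the sources used here do not state a strand setting.

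Relative to the mRNAs made by the mitochondria themselves, Rpph1 gave a different picture. Crude_RNase 1, 2 and 3 had 1.32, 0.522 and 0.583 Rpph1 counts per 1000 counts of the 13 mitochondrial mRNAs, and IP_RNase had 0.238, 0.258 and 0.311. IP_RNase_ProK had 0.501, 0.632 and 0.213, and mitoplast_RNase had 0.587, 0.981 and 0.866. All IP_RNase libraries were below all crude ones, while mitoplast_RNase overlapped crude_RNase and lay above IP_RNase. When the fit was scaled on the mitochondrial mRNAs, Rpph1 differed from crude mitochondria by -1.57 in IP_RNase, -0.86 in IP_RNase_ProK and 0.0066 in mitoplast_RNase on the log2 scale (edgeR adjusted p = 1.42e-05, 0.0178 and 0.985). Mitoplast_RNase was above IP_RNase by 1.58 on that scale (edgeR adjusted p = 0.0033). The denominator itself differed between the groups. Mitochondrial mRNA counts were 1509336 to 2052635 per crude_RNase library and 85108 to 218473 per IP_RNase library. They were 63243 to 79846 per IP_RNase_ProK library and 56598 to 77491 per mitoplast_RNase library. Under this scaling the median of all genes shifted by 1.12 between mitoplast_RNase and IP_RNase and by 4.93 between mitoplast_RNase and crude_RNase. A large fall was not particular to Rpph1 and the mitochondrial mRNAs. The muscle marker Acta1 had 6531 to 7102 counts in crude_RNase and 108 to 153 in mitoplast_RNase. Whether Rpph1 is tied to mitochondrial RNA was not tested.

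Among the bead-isolated preparations no difference in Rpph1 passed the test. Proteinase K gave a log2 fold change of -0.65 ± 0.304 against IP_RNase (SE; edgeR adjusted p = 0.532), with overlapping counts. It was -0.10 without IP_RNase 3, the library with 68 counts, and -0.40 without IP_RNase_ProK 3. Mitoplasts were at 0.27 ± 0.267 against IP_RNase (edgeR adjusted p = 0.795), and between 0.00 (without IP_RNase 2) and 0.82 (without IP_RNase 3) with 1 library left out. The widest difference was between mitoplasts and proteinase K-treated mitochondria, 0.92 ± 0.284 (unadjusted p = 0.00209, adjusted p = 1.0 with edgeR), where the CPM ranges did not overlap. A fit of these 6 libraries alone gave 0.92 with an edgeR adjusted p of 0.0409, and it called 11 of 26050 genes where the fit of all 12 libraries called 0. The counts behind this comparison are 44, 76 and 49 against 34, 40 and 17.

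The log2 fold changes of the 27 tested RNaseP_nuc copies against crude mitochondria ran from -1.12 to 1.51, far from those of Rpph1. The counts of the copies were low everywhere: the mean over 12 libraries ran from 1.17 to 26.1 counts per copy with a median of 12.2, and no single value exceeded 38. In no library did any of the 34 copies have more counts than the median olfactory receptor gene. In crude mitochondria Rpph1 had 173, 119 and 111 times the counts of the median copy. In IP_RNase the ratios were 2.75, 2.0 and 5.23, in IP_RNase_ProK 2.27, 3.20 and 1.31, and in mitoplast_RNase 3.67, 5.43 and 4.45. In IP_RNase_ProK 3 as many as 12 copies had at least as many counts as Rpph1, in IP_RNase 2 there were 2 such copies, and in the other 10 libraries there were 0. Whether reads were shared between Rpph1 and its copies is uncertain, because the sources used here do not state how multiply matching reads were treated.

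As a sum, no difference between the copies of crude and bead-isolated preparations passed the test. They had 450, 358 and 309 counts in crude_RNase and 411 to 552 in the other libraries. This was 94.5 ± 7.26 CPM for crude mitochondria and 96.2 ± 4.68 for mitoplasts (SD, n = 3 each). IP_RNase had 101 ± 3.43 CPM and IP_RNase_ProK 101 ± 2.59, and the ranges of crude and bead-isolated groups overlapped. The log2 fold changes against crude_RNase were 0.10 ± 0.0806, 0.10 ± 0.0795 and 0.02 ± 0.0800 for IP_RNase, IP_RNase_ProK and mitoplast_RNase, the order kept in the rest of this paragraph (SE; edgeR adjusted p = 0.586, 0.583 and 0.925). Per 1000 counts of olfactory receptor genes the copies had 7.34 to 9.41 counts in crude_RNase and 7.26 to 8.13 in the other libraries. Under library size scaling the sum was 1.12, 1.17 and 1.09 above crude mitochondria (edgeR adjusted p = 8.07e-10, 1.67e-10 and 7.23e-10), but the median of all genes was then shifted by 1.03, 1.08 and 1.07. Under olfactory receptor scaling the sum was at -0.12, -0.02 and -0.09, with gene medians of -0.21, -0.12 and -0.11, and under mitochondrial mRNA scaling at 3.93, 5.04 and 4.95, with gene medians of 3.81, 4.95 and 4.93. The share of Rpph1 in the counts of both together was 77.6% ± 3.48 for crude mitochondria. IP_RNase had a share of 8.57% ± 4.58, IP_RNase_ProK one of 5.71% ± 2.21 and mitoplasts one of 10.7% ± 1.98 (SD, n = 3, as for crude mitochondria).

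**Figure D2:**
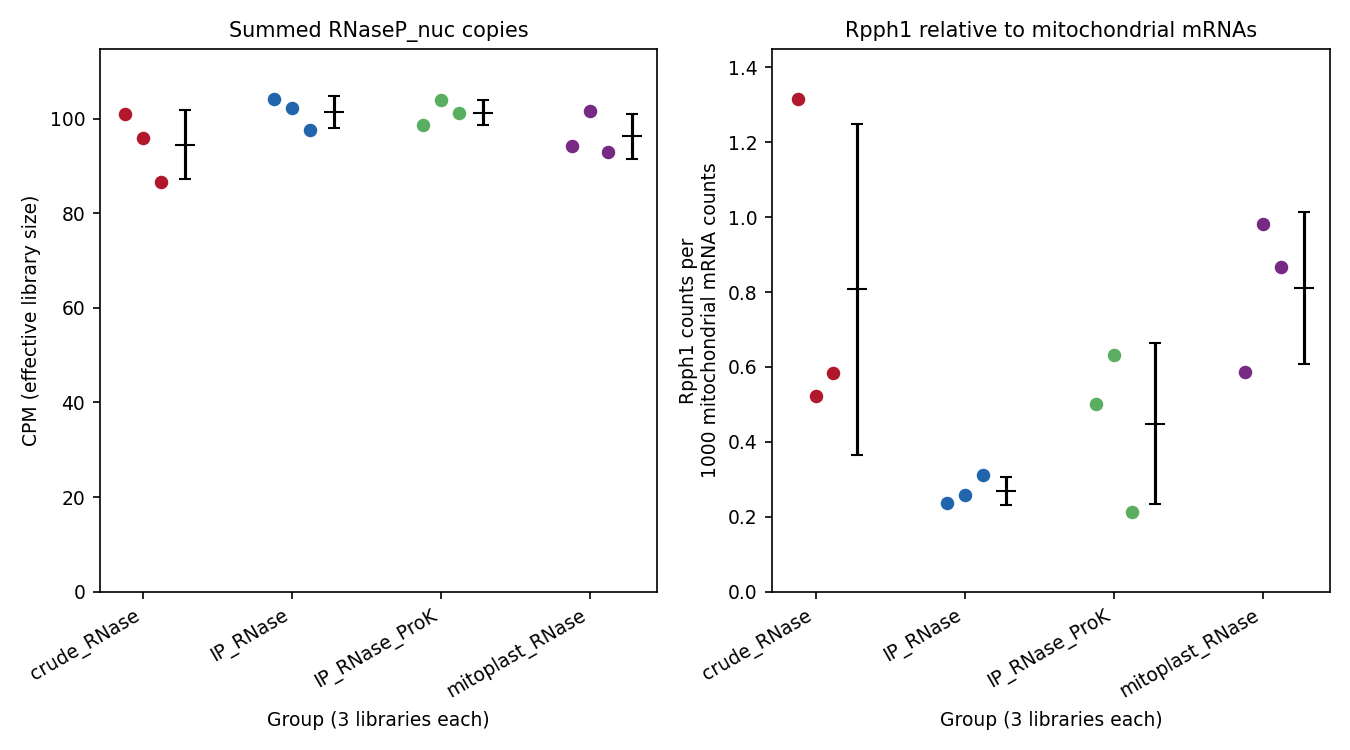
Left, CPM of the 34 RNaseP_nuc copies summed; right, Rpph1 counts per 1000 counts of the 13 mitochondrial mRNAs. Points are libraries in the order of their replicate numbers, and bars beside them give the mean and SD of the 3 libraries. The copies lie between 86.6 and 104 CPM in all groups, while the ratio of Rpph1 has its lowest mean in IP_RNase, its lowest single value in IP_RNase_ProK 3, and overlaps between crude_RNase and mitoplast_RNase.

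Of the 36 members, 28 passed the filter on low counts: Rpph1 and 27 copies. Against crude mitochondria, 2 members were lower and 1 higher in IP_RNase, where 5.09% and 1.26% of all tested genes were lower and higher. In IP_RNase_ProK 1 member was lower and 1 higher, against 5.04% and 1.45% of all genes, and in mitoplast_RNase 1 was lower and 1 higher, against 4.54% and 0.997%. Rpph1 was lower in each comparison, so the other calls concern single copies. CPM ranges did not overlap for 6, 5 and 6 of the 28 members in these comparisons, which is 21.4%, 17.9% and 21.4% and near the 19.4%, 20.5% and 19.0% of all genes. The median log2 fold change of the 27 copies was 0.12, 0.12 and 0.01, beside 0.01, 0.00 and 0.00 for all tested genes.

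**Figure D3:**
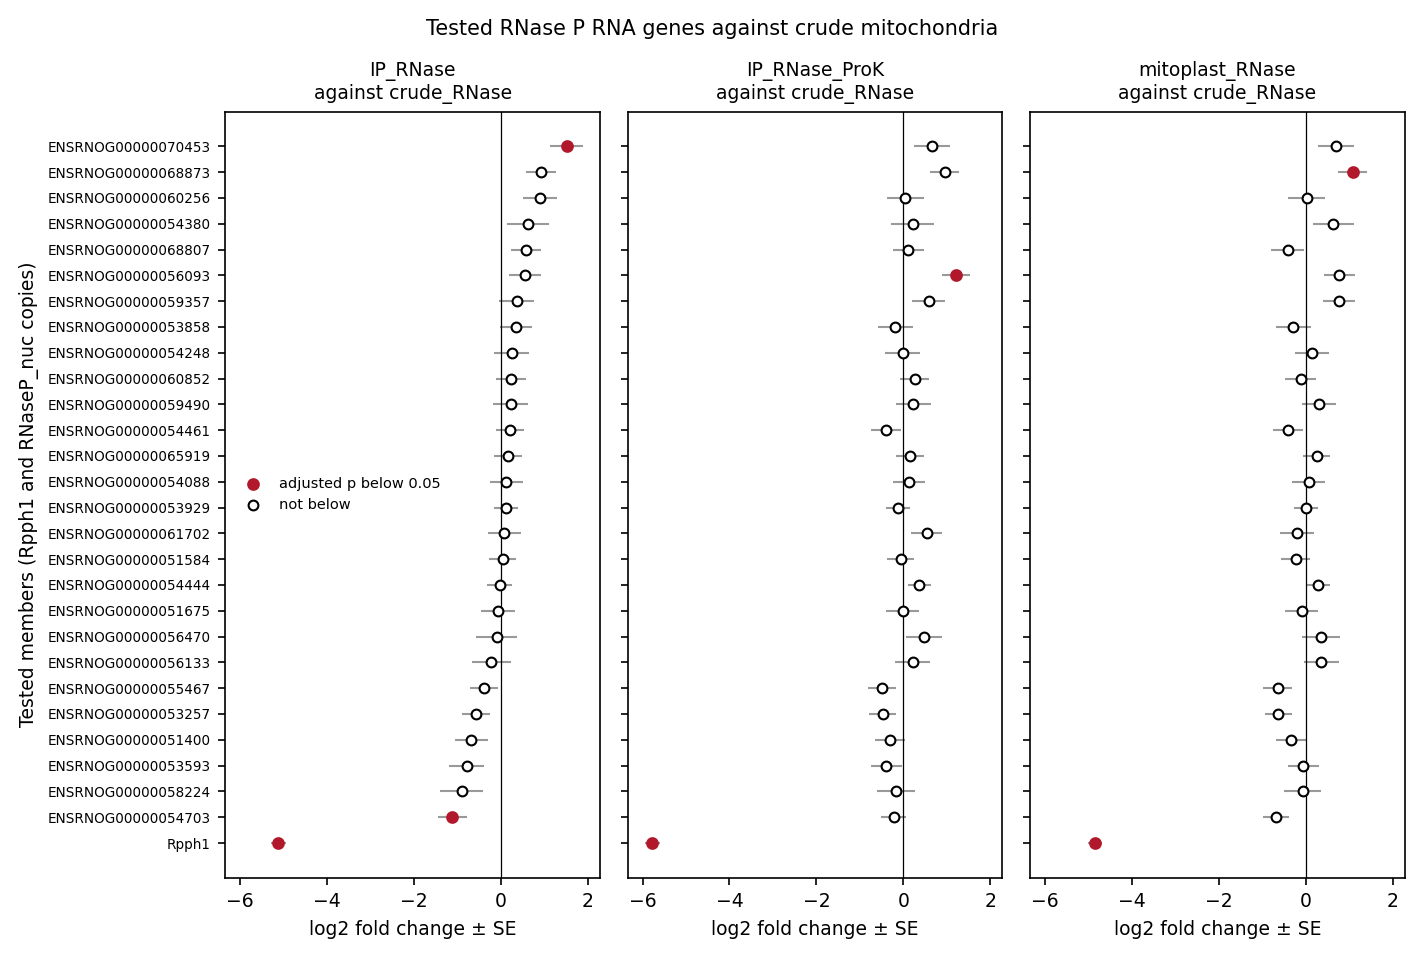
Log2 fold changes with their SE for the 28 tested members against crude mitochondria, on the same axis for the 3 comparisons and sorted by the first of them. Filled points have an edgeR adjusted p below 0.05. Rpph1 lies near -5 in each panel, and the 27 copies lie between -1.12 and 1.51 with a different copy or copies called in each panel. Under mitochondrial mRNA scaling Rpph1 was at 0.0066 in mitoplast_RNase and the 27 copies were called higher in all 3 comparisons. Nearly all genes were called under that scaling too: 26449, 26470 and 26465 of 26483. The median gene was then shifted by 3.81, 4.95 and 4.93, so these calls are not particular to the copies.

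The copies that were called had few counts, and none was called in more than 1 comparison. ENSRNOG00000070453 had 9, 9 and 4 counts in crude_RNase and 22, 29 and 17 in IP_RNase, without overlap, a log2 fold change of 1.51 ± 0.379 (SE; edgeR adjusted p = 0.0057). The call ended without IP_RNase 2 (adjusted p = 0.0767), and the same copy was at 0.67 and 0.69 in IP_RNase_ProK and mitoplast_RNase. ENSRNOG00000054703 had 26, 21 and 16 counts in crude_RNase and 14, 7 and 10 in IP_RNase, a fall of -1.12 ± 0.334 (edgeR adjusted p = 0.0282). That call ended without crude_RNase 1 or 2 or IP_RNase 2 or 3 (edgeR adjusted p = 0.0934, 0.0591, 0.145 and 0.0963). It also ended under DESeq2 (0.0925) and under library size scaling, where the value was -0.11 (edgeR adjusted p = 0.761), and the value was 2.57 under mitochondrial mRNA scaling. In IP_RNase_ProK the copy called was ENSRNOG00000056093, with 11, 6 and 10 counts in crude_RNase and 27, 22 and 30 there, at 1.21 ± 0.333 (edgeR adjusted p = 0.0141). Its call ended without crude_RNase 2 or IP_RNase_ProK 3 (edgeR adjusted p = 0.0890 and 0.0893), and DESeq2 put it at 0.0578. In mitoplasts it was ENSRNOG00000068873, with 6, 18 and 8 counts in crude_RNase and 31, 29 and 24 in mitoplast_RNase, at 1.08 ± 0.330 (edgeR adjusted p = 0.0366). Leaving out crude_RNase 1 or 3 or any mitoplast library ended that call, with edgeR adjusted p-values of 0.230, 0.129, 0.142, 0.0860 and 0.0565. The log2 fold change was 0.70 without crude_RNase 1 and 1.72 without crude_RNase 2. The call also ended under DESeq2 (0.0996), olfactory receptor scaling (0.0617) and a fit of the 6 libraries alone (0.0712). This copy was also above crude_RNase in IP_RNase and IP_RNase_ProK, at 0.93 and 0.95, without passing (edgeR adjusted p = 0.104 and 0.0818).

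Among the bead-isolated preparations 0 of 28 members were called by edgeR in each of the 3 comparisons, and 0 by DESeq2. At an unadjusted p under 0.05 there were 5 for IP_RNase_ProK against IP_RNase, 3 for mitoplast_RNase against IP_RNase and 2 for mitoplast_RNase against IP_RNase_ProK. These are of 28 members, and 8.86%, 8.93% and 2.80% of all genes were under that p. Over all genes, edgeR called 0.14%, 0.155% and 0%. CPM ranges of 7, 4 and 2 members did not overlap, 25.0%, 14.3% and 7.14%, beside 16.6%, 16.0% and 9.47% of all genes.

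The remaining 8 members were too sparse to test. The 7 copies among them had means of 1.17 to 7.58 counts and no value above 11. The RNase_MRP copy (ENSRNOG00000057527) had 6 counts in all 12 libraries together: 1 for crude mitochondria, 0 for IP_RNase, 2 for IP_RNase_ProK and 3 for mitoplasts. The count of 0 over the 3 IP_RNase libraries allows a share of up to 0.277 per 1000000 (3 counts over the group), and 3 counts in mitoplast_RNase are 0.251 per 1000000, so no difference was detectable at this depth.

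No mRNA of the proteins that bind these RNAs passed the test. Of 11 genes of the nuclear RNase P and MRP proteins 10 were tested, and edgeR and DESeq2 each called 0 in every comparison with crude mitochondria (4, 2 and 1 at an unadjusted p under 0.05 with edgeR, where 17.9%, 17.8% and 16.7% of all genes were). The medians were -0.03, 0.01 and -0.04. Pop1, the largest subunit, had 192, 157 and 144 counts in crude_RNase and 155 to 225 in the other libraries, and was at 0.14 ± 0.110 in IP_RNase (edgeR adjusted p = 0.566). The values farthest from 0 in IP_RNase were those of Rpp30, at 0.41 ± 0.172, and Pop5, at -0.38 ± 0.156 (edgeR adjusted p = 0.168 and 0.154), both subunits of the shared protein core. Pop4, Pop7, Rpp14, Rpp25, Rpp25l, Rpp38 and Rpp40 lay between -0.37 and 0.27. Rpp21 was listed at 0 in all 12 libraries. For the protein-only mitochondrial enzyme, of Trmt10c, Hsd17b10 and Prorp, 0 of 3 were called by edgeR or DESeq2 in any comparison, and 0 had an unadjusted p under 0.05. In IP_RNase against crude_RNase they were at -0.02 ± 0.173, -0.22 ± 0.238 and -0.03 ± 0.167 (SE). Hsd17b10, the dehydrogenase subunit, had only 25 to 43 counts per library, about as many as the median olfactory receptor gene. Among the other protein mRNAs, Rpp14 and Rpp25 were also low, at 38 to 91 and 41 to 70 counts. Rpp38 had 132 to 281 counts and Rpp25l 91 to 162, where the median olfactory receptor gene had 30 to 50. The highest of the 1077 olfactory receptor genes had 258 to 493 counts, and every protein mRNA of these lists was below it in each library. How far such counts measure mRNA was not tested.

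**Figure D4:**
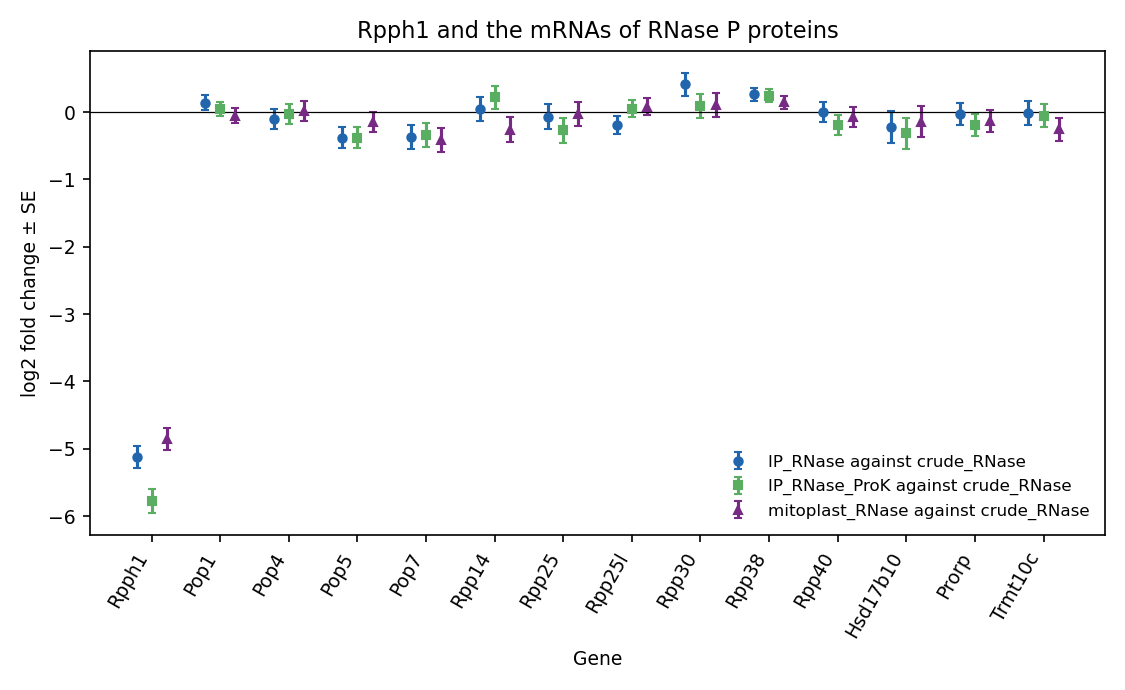
Log2 fold changes with SE of Rpph1, of 10 mRNAs for nuclear RNase P and MRP proteins and of 3 for the mitochondrial protein-only enzyme, each against crude mitochondria. Rpph1 lies between -5.77 and -4.85, and the protein mRNAs lie between -0.42 and 0.41, none with an edgeR adjusted p below 0.05. Each of these mRNAs had fewer counts than the highest of 1077 olfactory receptor genes in every library, while Pop1 and Rpp38 stood above the median one in each.

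Of 17 tested genes for other steps of transfer RNA and mitochondrial RNA processing, 2, 2 and 1 were lower against crude mitochondria in IP_RNase, IP_RNase_ProK and mitoplast_RNase, beside 5.09%, 5.04% and 4.54% of all genes, and 0 were higher, beside 1.26%, 1.45% and 0.997%. Nothing particular to this list is read from 1 or 2 genes. Lrpprc, which stabilises mitochondrial mRNAs, was at -0.31 ± 0.0863, -0.32 ± 0.0847 and -0.41 ± 0.0856 (SE; edgeR adjusted p = 0.0162, 0.00975 and 0.000516). Omitting crude_RNase 2 ended the first and second calls (edgeR adjusted p = 0.0829 and 0.0722), as did omitting IP_RNase 2 for the first (0.0705) and IP_RNase_ProK 3 for the second (0.0605). Rexo2, an oligoribonuclease of mitochondria, was at -0.45 ± 0.129 and -0.43 ± 0.125 in the first and second (edgeR adjusted p = 0.0211 and 0.0252) and at -0.25 in mitoplasts. Its first call ended without crude_RNase 3, IP_RNase 1 or IP_RNase 2 (adjusted p = 0.0893, 0.0749 and 0.122), its second without crude_RNase 3, IP_RNase_ProK 1 or IP_RNase_ProK 2 (0.109, 0.102 and 0.105), and both with DESeq2 (0.0815 and 0.0994). A fit of the 6 libraries alone also ended the first (0.0533). Under library size and mitochondrial mRNA scaling both genes were higher instead, with library size Lrpprc by 0.72, 0.76 and 0.66 and Rexo2 by 0.57 and 0.66, less than the shift of the median gene. Trnt1, which adds the CCA end of transfer RNAs, was at -0.34 ± 0.140 in IP_RNase without passing (edgeR adjusted p = 0.15). Of 11 genes of mitochondrial transcription and replication, where an RNA primer is made, edgeR and DESeq2 called 0 against crude mitochondria. At an unadjusted edgeR p under 0.05 there were 4, 3 and 1 of the 11, beside 17.9%, 17.8% and 16.7% of all genes. The smallest p-values in IP_RNase belonged to Ssbp1, the mitochondrial single-strand binding protein, at -0.53 ± 0.189, Polg2, the accessory subunit of the mitochondrial polymerase, at -0.39 ± 0.143, and Tfam, the packaging factor of mitochondrial DNA, at -0.40 ± 0.150 (edgeR adjusted p = 0.0897, 0.0978 and 0.110).

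The genes whose log2 CPM followed that of Rpph1 most closely differed with the libraries included. Over all 12 libraries, among 16098 named genes with a mean of at least 50 counts, the highest Pearson correlation was that of Metazoa_SRP (ENSRNOG00000055825), a copy of the signal recognition particle RNA, at 0.987. Eef1g, a translation elongation factor, followed at 0.984, then the glycogen phosphorylase Pygm at 0.983, collagen Col1a1 at 0.982 and the fast myosin Myh4 at 0.981. These points share the split between crude and bead-isolated libraries: Metazoa_SRP had 3528, 2592 and 2540 counts in crude_RNase and 19 to 78 in the rest, and the 95th percentile of the correlation over all candidates was 0.818. Over the 9 bead-isolated libraries the highest were Ppfia1 at 0.952, Tbpl2 at 0.941, Ube2q2 at 0.933, Fads3 at 0.916 and Bend6 at 0.908. None of the genes named over 12 libraries was among them, and Rpph1 had only 17 to 76 counts in those libraries.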

How the data were processed

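The authors deposited a table of raw read counts per Ensembl gene, whole numbers without normalisation, per the file headers. Per the submitters' processing notes, FastQC 0.74, cutadapt 4.6, STAR 2.7.11a and HTSeq were used with genome mRatBN7.2; these sources state no annotation release, strand setting or rule for multiply matching reads. Columns were matched to library descriptions, with 0 columns left over. The labels name immunoprecipitation as the source of the crude libraries too, and their titles and the design text were followed.

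One edgeR 4.0.16 quasi-likelihood model of 4 groups (R 4.3.3, TMM scaling, filterByExpr with a minimum count of 10) was fitted to all 12 libraries, and p-values were adjusted by Benjamini-Hochberg over 26483 genes, with a threshold of 0.05. The common biological coefficient of variation was 0.0644. The SE is the absolute log2 fold change over the square root of F, from dispersions moderated over all genes. Alternatives used DESeq2 1.42.0, 3 other scalings, no filter, single comparisons, summed members, a replicate block and leaving out each library. Simulated counts for mitoplast_RNase against IP_RNase had 26591 genes tested. Of 50 genes at a fold of 0.5, 90.0% were recovered, and of 50 at a fold of 2, 100.0%. Among the unchanged genes 13 were called. The changed genes were drawn only above a minimum expected count that most RNaseP_nuc copies do not reach. Every gene was given the common coefficient of variation. The rates therefore do not cover sparse copies or genes with a wider spread. Exact permutation tests used SciPy 1.17.1. The members, lists and tests were chosen with earlier results of these data known, and named genes were all members, all genes of the first and second protein lists, the 3 smallest p-values of the other lists and the 5 highest correlations. The sum of the RNaseP_nuc copies was added after seeing the data. Replicate numbers did not pair the libraries.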

Additional observations from a re-analysis of the deposited data

How the results depend on the processing

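In all edgeR and DESeq2 alternatives, the fall of Rpph1 against crude mitochondria kept its direction and passed the threshold, with an exception. Under mitochondrial mRNA scaling mitoplast_RNase against crude_RNase was at 0.0066 (edgeR adjusted p = 0.985). Leaving out 1 library gave -5.67 to -4.86 for IP_RNase, -6.09 to -5.51 for IP_RNase_ProK and -5.08 to -4.59 for mitoplast_RNase. With all members summed into 1 feature the values were -1.96, -2.01 and -2.0. Among bead-isolated groups, mitochondrial mRNA scaling put IP_RNase_ProK against IP_RNase at 0.71 (adjusted p = 0.0734) and mitoplast_RNase against IP_RNase at 1.58, summing the members put the latter at -0.0367 (adjusted p = 0.944), and the fit of 6 libraries put mitoplast_RNase against IP_RNase_ProK at 0.92. Members called against crude mitochondria numbered 3, 2 and 2 in the main fit, beside 1684, 1719 and 1467 of 26483 genes. Library size scaling called 20, 24 and 22 of the 28 tested members, and 25273, 25408 and 25402 of all 26483 tested genes. Mitochondrial mRNA scaling called 28, 28 and 27 members, and 26449, 26470 and 26465 genes. It also called 20 members in each comparison of a bead-isolated group with IP_RNase, beside 24890 and 24728 genes. These counts are not read as particular to the members. With DESeq2, 1 member was called in each of IP_RNase_ProK and mitoplast_RNase, beside 1121 and 1024 genes. In mitoplast_RNase 1 member was called with olfactory receptor scaling or with the 6 libraries alone, beside 1790 and 1166 genes. Likewise 1 was called in mitoplast_RNase against IP_RNase_ProK in its own 6, beside 11 of 26050 genes. Without 1 library the members called against crude mitochondria ranged from 1 to 3, 1 to 2 and 1 to 2. All genes called then numbered 1198 to 1959, 1185 to 2252 and 1142 to 2016, of 26775 to 26880 tested. Rpph1 then ranged from -0.96 to -0.10, 0.00 to 0.82 and 0.67 to 1.23 among bead-isolated groups. The cause of these changes was not tested. Mitochondrial mRNA scaling also turned ENSRNOG00000054703 to 2.57, Lrpprc to 3.52, 4.65 and 4.54 and Rexo2 to 3.32 and 4.51, and library size turned Lrpprc to 0.72, 0.76 and 0.66 and Rexo2 to 0.57 and 0.66. With the replicate block Rpph1 was at -5.10, -5.77 and -4.83 against crude mitochondria. Again 3, 2 and 2 members were called, beside 1638, 1676 and 1411 of 26483 genes. Same-numbered libraries had deviations correlated by -0.10 to 0.07, and numbers do not mark a shared source. Exact tests of shares and ratios kept their direction throughout. Against crude mitochondria these permutation tests did not pass the threshold. Their adjusted p was 0.15 in the main and the alternative setting, and the unadjusted exact p was 0.2 with 1 library left out. With 3 libraries a group an exact p below 0.1 is not possible. Depth limits the copies, at a median of 12.2 counts, and the RNase_MRP copy, at 6 counts in all.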
